A study of Mus musculus with 6 samples.

Results

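The C/EBP family genes were taken by symbol, Cebpa, Cebpb, Cebpd, Cebpg, Cebpz and Ddit3 and not by a measured value, though with earlier results of these data known. The 6 symbols matched 7 of the 55335 gene rows in the count table, because Ddit3 has 2 gene models, and 6 of those rows held counts. Bulk RNA-seq of total RNA was available for 6 libraries of bone marrow-derived macrophages (BMDMs), which are primary macrophages grown from marrow of the femur and tibia with medium conditioned by L929 fibroblasts. All cells were from C57BL/6 mice, and the library names mark every library as WT, wild type. The labels give no other allele. Cells of 3 libraries were given PBS as the control and those of the other 3 were given LPS, a bacterial cell wall component sensed by TLR4, and both groups were collected after 1 h. The comparison asks which genes of the family had responded at that time. The labels do not say whether the replicates came from separate mice or cultures, so p-values measure only the spread between these libraries. In bulk RNA a change in the cells present and a change of RNA per cell cannot be told apart.

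C/EBP proteins bind DNA as dimers through a basic region and a leucine zipper (bZIP). C/EBPα and C/EBPβ direct the formation of monocytes, macrophages and granulocytes, and C/EBPβ and C/EBPδ are known activators of cytokine and acute-phase genes in stimulated macrophages. C/EBPγ lacks a strong activation domain and acts through its partners, among them ATF4. CHOP, the product of Ddit3, is a stress-induced member that keeps other C/EBP proteins from their usual sites. CEBPZ carries the family name, but it has no bZIP domain and is a nucleolar protein of ribosome assembly. C/EBPε, encoded by Cebpe, acts late in granulocyte formation and stands outside the 6 symbols.

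The family genes lie at 5 places in the mouse genome, given here from GENCODE M21 on GRCm38, counted from 1. Cebpa (chr7:35119293-35121928, plus strand) and Cebpg (chr7:35046422-35056573, minus strand) are neighbors on chromosome 7, with 62720 bp between them. Cebpb (chr2:167688915-167690418), Cebpd (chr16:15887286-15891031) and Ddit3 (chr10:127290774-127296288) are on the plus strand, and Cebpz (chr17:78919006-78937066) is on the minus strand. Cebpa, Cebpb and Cebpd each have 1 exon, so their counts come from a single block of 2636, 1504 and 3746 bp. Cebpg has 3 exon blocks, Ddit3 has 4 and Cebpz has 16.

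The 250 bases before the RefSeq start site are shown for the members that had an entry in the RefSeq promoter set (GRCm38.p6) (4 of 6), among them the 3 genes with the largest changes described below, Cebpb, Ddit3 and Cebpa. Cebpd and Cebpz had none. The windows are chr7:35119043-35119292 (plus) for Cebpa, chr2:167688665-167688914 (plus) for Cebpb, chr7:35056567-35056816 (minus) for Cebpg and chr10:127290543-127290792 (plus) for Ddit3, each printed 5′ to 3′ on the strand of its gene. Capitals mark matches, on either strand, to a TATA box in Cebpa, to the core of a cyclic AMP response element in Cebpb, to CCAAT boxes in Cebpg, and to an AP-1 site and a CCAAT box in Ddit3.
Cebpa: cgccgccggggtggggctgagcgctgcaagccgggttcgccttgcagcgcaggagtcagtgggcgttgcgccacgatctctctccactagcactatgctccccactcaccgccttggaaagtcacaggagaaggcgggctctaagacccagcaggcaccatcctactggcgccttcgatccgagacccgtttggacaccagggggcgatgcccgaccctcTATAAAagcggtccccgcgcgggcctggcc
Cebpb: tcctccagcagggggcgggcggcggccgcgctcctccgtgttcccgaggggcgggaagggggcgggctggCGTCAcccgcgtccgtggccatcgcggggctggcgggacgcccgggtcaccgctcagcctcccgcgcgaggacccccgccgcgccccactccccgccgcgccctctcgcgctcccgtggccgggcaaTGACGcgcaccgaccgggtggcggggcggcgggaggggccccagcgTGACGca
Cebpg: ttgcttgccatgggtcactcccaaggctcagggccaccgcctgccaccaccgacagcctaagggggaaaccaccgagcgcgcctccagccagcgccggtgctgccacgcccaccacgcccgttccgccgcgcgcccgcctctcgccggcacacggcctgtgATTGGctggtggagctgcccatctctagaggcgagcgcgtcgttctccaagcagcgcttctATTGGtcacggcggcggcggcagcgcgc
Ddit3: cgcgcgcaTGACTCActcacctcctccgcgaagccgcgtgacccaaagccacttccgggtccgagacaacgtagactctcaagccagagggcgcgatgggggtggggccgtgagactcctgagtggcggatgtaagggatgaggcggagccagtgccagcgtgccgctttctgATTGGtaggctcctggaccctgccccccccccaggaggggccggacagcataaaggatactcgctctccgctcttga

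These letters set Cebpb apart from the other 3 windows as a matter of description only. The Cebpb window held the cyclic AMP element core, TGACG, 3 times, whereas 17.8% of all 32851 promoter windows held it at least once and 0.688% held it at least 3 times. It also held the GC box GGGCGG 5 times, which is not capitalized here. At least 1 GC box was present in 32.7% of windows and at least 5 were present in 1.93%. The Cebpb window had a GC content of 81.6%, against 66.4% for Cebpa, 70.8% for Cebpg and 64.8% for Ddit3. The TATAAA of Cebpa occurs in 12.4% of windows. The CCAAT box occurs in 33.8% of windows and stood 2 times in Cebpg and 1 time in Ddit3, where it is printed as its complement. The AP-1 site TGACTCA of Ddit3 occurs in 4.46% of windows. The full cyclic AMP element (TGACGTCA, 1.55% of windows), the C/EBP palindrome (TTGCGCAA, 0.164%), the C/EBP-ATF element (TGATGNAA, 3.45%) and the kappaB consensus (7.25%) had no match in these 4 windows. TGACG forms part of the full cyclic AMP element.

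After 1 h of LPS the family had split. Cebpb rose 7.52-fold, Ddit3 fell 2.39-fold and Cebpa fell 2.0-fold, which places Cebpa at the limit used for a call. Cebpg was moderately lower, Cebpz slightly higher, and Cebpd was nearly level. Levels are given as CPM, counts relative to the size of the library and scaled between libraries by the TMM method, and a gene was called higher or lower at an adjusted p under 0.05 with a log2 fold change beyond 1 in either direction, by edgeR's quasi-likelihood test over 15687 genes. By these criteria 1 of the 6 members was higher, against 10.5% of all genes tested, and 2 were lower, against 10.4% of all genes. With the adjusted p alone, 3 members were higher and 3 lower, where 32.9% and 34.9% of all genes were. The values of PBS and LPS libraries did not overlap for any of the 6 members, as was the case for 70.5% of all genes tested.

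**Figure D1:**
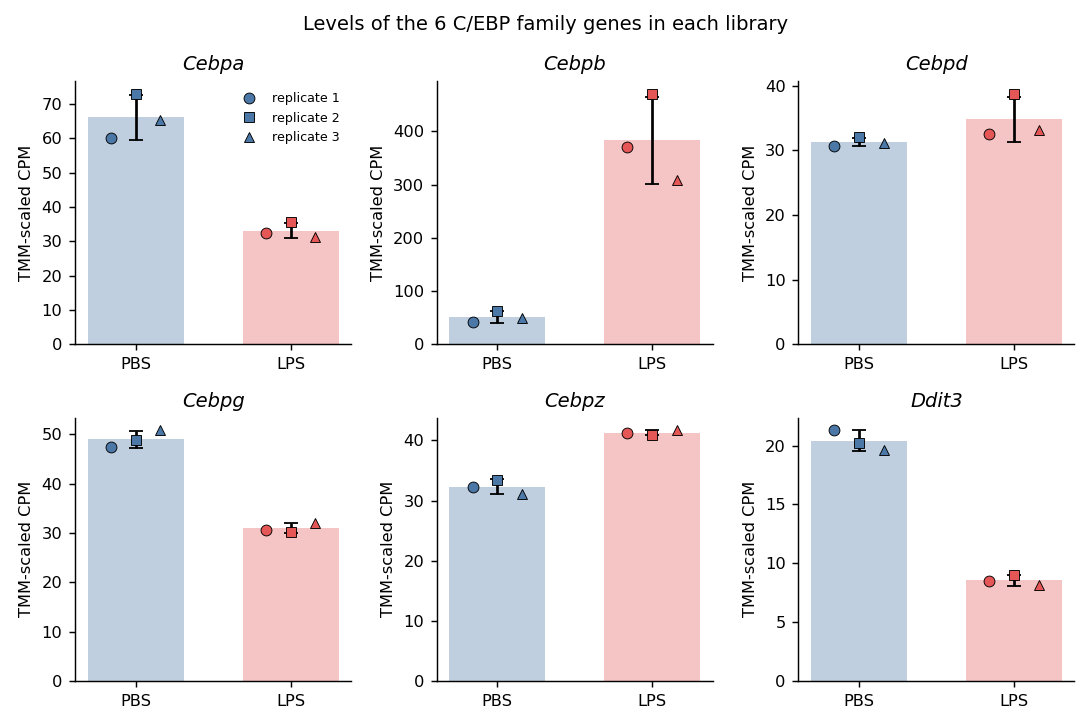
TMM-scaled CPM of the 6 C/EBP family genes. Bars give the mean and error bars the SD over 3 libraries, and circles, squares and triangles are replicates 1, 2 and 3 of PBS (blue) and LPS (red). The axis of each gene starts at 0 and has its own scale. Cebpb lay between 41.1 and 62.3 CPM in PBS and between 308.0 and 471.0 CPM in LPS, while the groups of Cebpd are separated by only 0.444 CPM.

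Cebpb encodes C/EBPβ, the activator most tied to inflammatory gene expression in macrophages. Its counts in PBS replicates 1, 2 and 3 were 1955, 2816 and 2291, and in LPS they were 12441, 15376 and 10493. As CPM these were 41.1, 62.3 and 49.7 in PBS, and 371.0, 471.0 and 308.0 in LPS. Every LPS library was therefore far above every PBS library, but libraries of the same group differed by more than is usual for this data set. The mean rose from 51.0 ± 10.7 to 383.0 ± 82.1 CPM (SD, n = 3). On the log2 scale this was 2.91 with a standard error of 0.131 (edgeR adjusted p = 9.22e-13). This was the 511th largest rise among the genes tested. The DESeq2 test gave a log2 fold change of 2.93 with a standard error of 0.25, so the standard error of Cebpb depends on the method. Within same-numbered libraries the rise was 9.03-fold, 7.56-fold and 6.21-fold.

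Cebpa encodes C/EBPα, the member that commits progenitors to the myeloid lineage. It had 2855, 3303 and 3018 counts in PBS and 1088, 1161 and 1062 in LPS. Its CPM were 59.96, 73.1 and 65.4 in PBS, and 32.4, 35.6 and 31.2 in LPS, so all LPS libraries were near the same low level. The mean fell from 66.2 ± 6.61 to 33.1 ± 2.25 CPM (SD, n = 3). The log2 fold change was -1.0006 with a standard error of 0.0635 (edgeR adjusted p = 1.34e-10). The difference was far larger than the spread, but the call rests on the limit. With replicate blocks in the model it was -0.9988, past the limit on p and not on fold, and then 1 member in place of 2 was called lower. The call was also lost without PBS replicate 2 (-0.92), without LPS replicate 1 (-0.99) and without LPS replicate 3 (-0.96), each giving 1 member called lower.

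Ddit3 encodes CHOP. Its main gene model had 1016, 914 and 903 counts in PBS and 285, 294 and 276 in LPS. In CPM the PBS libraries had 21.3, 20.2 and 19.6, and the LPS libraries had 8.49, 9.01 and 8.11. The groups were far apart and each was narrow, with 20.4 ± 0.893 CPM in PBS and 8.54 ± 0.451 in LPS (SD, n = 3). The log2 fold change was -1.26 with a standard error of 0.0675 (edgeR adjusted p = 1.23e-11), and Ddit3 remained called lower without any single library (log2 from -1.30 to -1.22). The other Ddit3 gene model had 0 counts in all 6 libraries. Its 105 exonic bp all lie within exons of the first, so no read can be assigned to it alone by position.

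Cebpg encodes the partner protein C/EBPγ. Its CPM were 47.4, 48.9 and 50.8 in PBS and 30.6, 30.2 and 32.1 in LPS, with no overlap and little spread. The mean moved from 49.0 ± 1.75 to 31.0 ± 0.984 CPM (SD, n = 3). The log2 fold change of -0.66 with a standard error of 0.0449 (edgeR adjusted p = 3.43e-10) did not reach the limit on fold.

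Cebpd encodes C/EBPδ, known as an acute-phase and LPS-inducible activator. It had 30.7, 32.0 and 31.1 CPM in PBS and 32.5, 38.8 and 33.1 CPM in LPS. LPS replicate 2 was high, and the other LPS libraries were barely above the highest PBS library. The means were 31.3 ± 0.653 and 34.8 ± 3.52 CPM (SD, n = 3), which differ by 0.15 on the log2 scale with a standard error of 0.0585 (edgeR adjusted p = 0.0294). Without LPS replicate 2 it was 0.07 (adjusted p = 0.26), without PBS replicate 1 it was 0.14 (adjusted p = 0.0827) and without PBS replicate 3 it was 0.15 (adjusted p = 0.0688).

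Cebpz had 32.3, 33.5 and 31.1 CPM in PBS and 41.2, 40.9 and 41.7 in LPS, again without overlap. The means were 32.3 ± 1.24 and 41.3 ± 0.369 CPM (SD, n = 3), and the log2 fold change was 0.35 with a standard error of 0.044 (edgeR adjusted p = 1.28e-06). The small values of Cebpd and Cebpz depend on how libraries are scaled. Library size alone shifted the median log2 fold change of all genes by -0.405 and turned the log2 fold changes of Cebpd to -0.25 (adjusted p = 0.000658) and of Cebpz to -0.05 (adjusted p = 0.299). Upper quartile scaling shifted the median by -0.143 and left Cebpd at 0.01 (adjusted p = 0.903). Cebpb, Cebpa and Ddit3 kept their direction under every scaling tried, as did Cebpg, which passed the limit on fold with library size alone (-1.07).

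**Figure D2:**
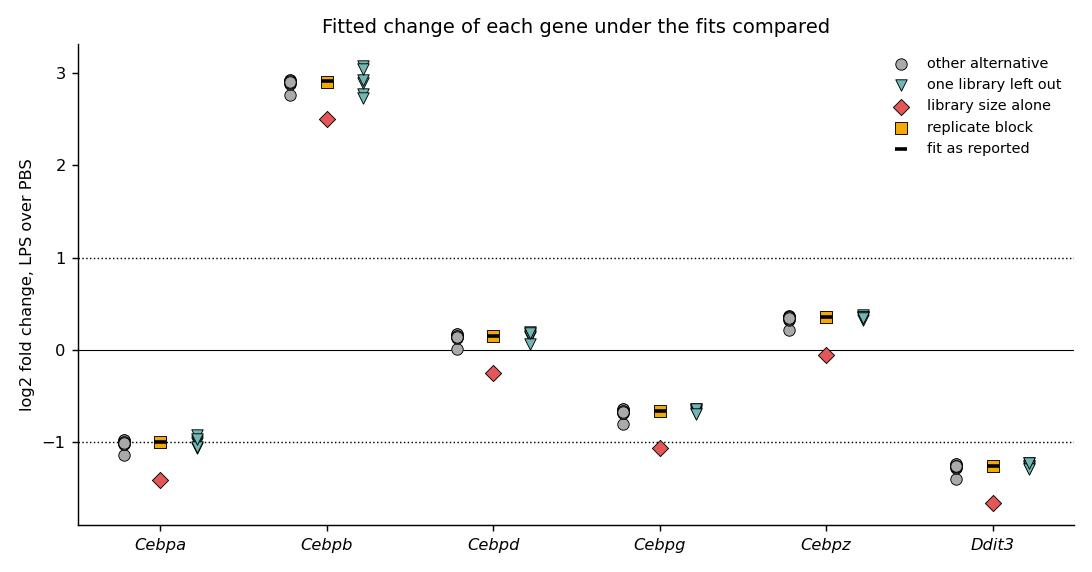
Log2 fold change of each C/EBP family gene, LPS over PBS, as reported (black bar) and under the alternatives (symbols). Dotted lines mark -1 and 1, the limits for a call. Cebpa lies near the lower limit, between -1.41 and -0.92, Cebpd and Cebpz turn below 0 with library size alone (red diamonds), and Cebpb stays between 2.50 and 3.08.

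Levels of different genes were compared as CPM per kb of exonic length. In PBS the order of the levels was Cebpb (33.9), Cebpa (25.1), Ddit3 (11.9), Cebpg (8.72), Cebpd (8.35) and Cebpz (6.93). The ranges of Cebpb and Cebpa overlapped over the 3 libraries, as did those of Cebpg and Cebpd. In LPS the order was Cebpb (255.0), Cebpa (12.5), Cebpd (9.28), Cebpz (8.86), Cebpg (5.51) and Ddit3 (4.98), and the ranges of Cebpd and Cebpz overlapped. Ddit3 thus stood directly below Cebpa in PBS and last in LPS. The order in PBS depends on the length used, which counts every annotated exon. Before division by length the mean CPM in PBS was higher for Cebpa (66.2) than for Cebpb (51.0). It was also higher for Cebpg (49.0) than for Ddit3 (20.4). Cebpe, the granulocyte member, had 24, 17 and 14 counts in PBS and 15, 11 and 9 in LPS, with a log2 fold change of -0.18 and a standard error of 0.34 (edgeR adjusted p = 0.655).

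Shares within a library do not depend on scaling between libraries, so the makeup of the family was compared directly. Cebpb made up 31.7%, 39.3% and 35.4% of the summed counts per kb of the 6 genes in PBS, and 86.0%, 87.9% and 83.7% in LPS. Its share went from 35.5% ± 3.79 to 85.8% ± 2.11 (SD, n = 3), a difference of 50.4 percentage points. The share of Cebpa went from 26.4% ± 0.148 to 4.3% ± 0.523, and that of Ddit3 from 12.6% ± 1.67 to 1.71% ± 0.229. Cebpg went from 9.25% to 1.91%, Cebpd from 8.85% to 3.18% and Cebpz from 7.34% to 3.07%. Shares of a whole are tied to each other, so a larger share of Cebpb lowers the others. The mean TMM-scaled CPM of Cebpd (31.3 and 34.8) and Cebpz (32.3 and 41.3) did not fall. For each of the 6 genes the groups did not overlap, and the two-sided exact permutation test gave p = 0.1, adjusted 0.1 over the 6 genes, which is the smallest p that 20 assignments of 3 against 3 allow.

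**Figure D3:**
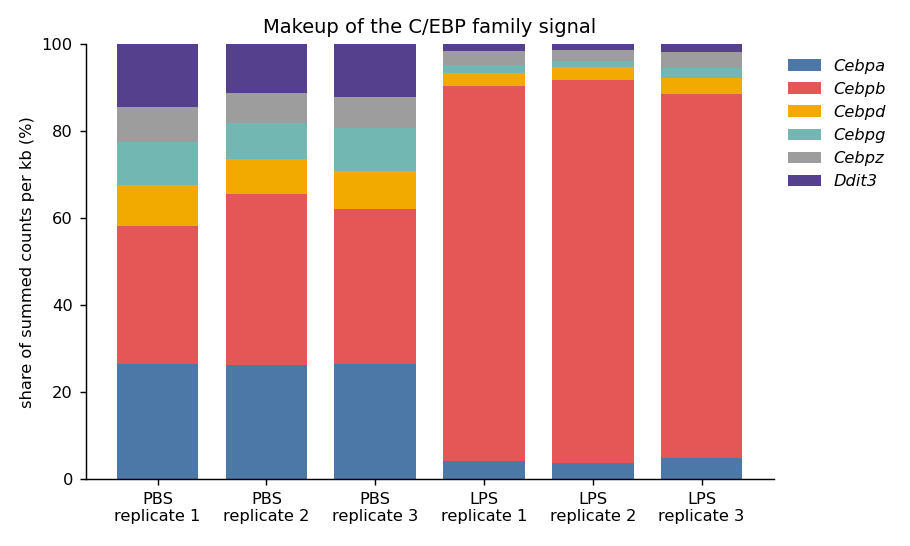
Share of each of the 6 C/EBP family genes in their summed counts per kb of exonic length, one stacked bar per library, in percent. Cebpb (red) takes 31.7% to 39.3% of the bar in PBS and 83.7% to 87.9% in LPS, and Cebpa (blue) takes 26.3% to 26.6% and 3.79% to 4.83%.

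The summed CPM per kb of the family rose 3.12-fold, from 94.9 ± 9.79 to 296.0 ± 56.3 (SD, n = 3, exact permutation p = 0.1). Without Cebpb the sum of the other 5 genes was 61.0 ± 2.69 in PBS and 41.2 ± 1.82 in LPS, 0.675 of the PBS level (exact permutation p = 0.1). Cebpb was 1.34 ± 0.147 times as abundant as Cebpa in PBS and 20.2 ± 2.95 times in LPS (exact permutation p = 0.1). The ratio of Cebpd to Cebpa went from 0.335 ± 0.0263 to 0.739 ± 0.0322, and that of Ddit3 to Cebpg from 1.37 ± 0.108 to 0.906 ± 0.0746, also without overlap between the groups. Among the 5 genes other than Cebpb, a comparison added after the data were seen, Cebpd went from 13.7% to 22.5% of the sum and Cebpz from 11.4% to 21.5%. Cebpa went from 41.1% to 30.4% and Ddit3 from 19.5% to 12.1%, and Cebpg from 14.3% to 13.4% with overlapping groups (exact permutation p = 0.2, adjusted 0.2). These 5 shares were adjusted together, and the others had adjusted p = 0.125.

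The spread within groups was uneven across the family. Cebpb was highest in replicate 2 of both groups, 0.31 above the group mean on the log2 CPM scale in PBS and 0.32 above it in LPS, and its 3 libraries ranged over 0.60 and 0.61. The median range of the 7613 genes with at least 500 counts on average was 0.09 in each group, and 31 of them in PBS and 9 in LPS, Cebpb included, had a range as wide as that of Cebpb. Cebpa was also highest in replicate 2 of both groups, by 0.15 and 0.11, and Cebpd in replicate 2 of LPS by 0.16. Cebpg, Cebpz and Ddit3 deviated by at most 0.08 in any library. GC content, taken from the longest transcript of each gene, moved with this order. It was 67.2% for Cebpb, 62.6% for Cebpa and 51.6% for Cebpd, against 43.3% to 45.6% for the other 3 genes. Among all genes of that abundance the median deviation in replicate 2 was 0.06 in PBS and 0.07 in LPS at a GC content of 60% and over (206 genes), and -0.04 in both at under 45% (2186 genes). The part of GC content in the levels of Cebpb and Cebpa was not tested. The deviation of Cebpb in replicate 2 was nearly the same in PBS and LPS, but those of the other replicates were not, with -0.29 in PBS and -0.03 in LPS for replicate 1 and -0.02 and -0.29 for replicate 3. With the replicate block the standard error of the log2 fold change of Cebpb was 0.06 in place of 0.13. Both come from edgeR, which draws the variance of a gene toward that of other genes, so neither is the spread of Cebpb alone. Within same-numbered libraries its log2 fold change was 3.17, 2.92 and 2.63.

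**Figure D4:**
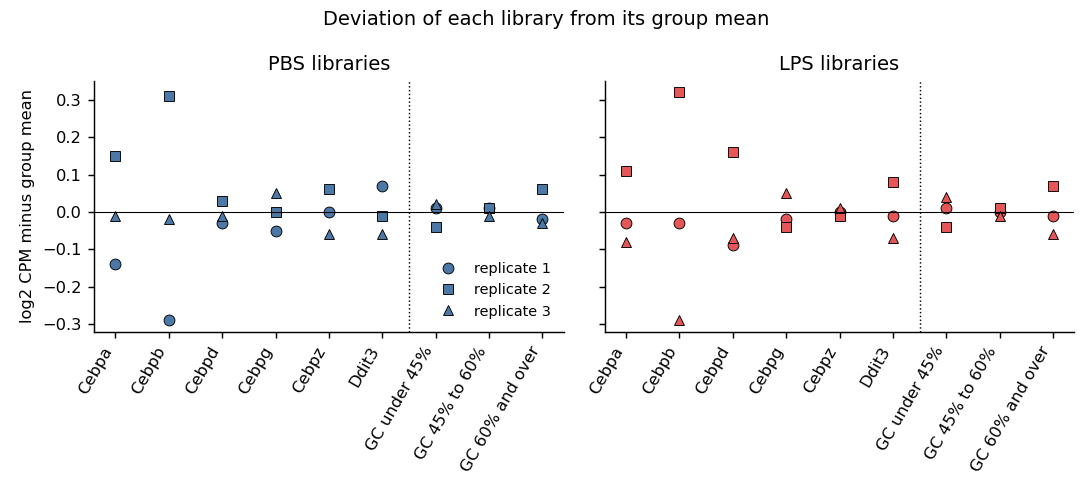
Deviation of each library from its group mean on the log2 CPM scale, PBS left and LPS right, for the 6 C/EBP family genes. Right of the dotted line is the median of the genes with at least 500 counts, in 3 classes of GC content of the longest transcript. Circles, squares and triangles are replicates 1, 2 and 3. Cebpb in replicate 2 (squares) stands 0.31 and 0.32 above its group means, and the median of the class with the highest GC content stands 0.06 and 0.07 above.

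Several family genes share exonic bases with a gene on the opposite strand. The libraries were made with a stranded kit, but the strand setting of the counting is not given in the sources used here, so in shared stretches reads of both genes may not be told apart. Tmem189, which makes plasmalogen lipids, shares 312 exonic bp with Cebpb and had a log2 fold change of 0.56 (edgeR adjusted p = 1.23e-10). A530013C23Rik, a lincRNA that starts 759 bp beyond the end of Cebpb on the same strand, had 54, 61 and 64 counts in PBS and 84, 87 and 83 in LPS, a log2 fold change of 0.97 (adjusted p = 1.64e-05). It therefore stood higher in LPS, just short of the limit on fold, while Cebpb rose far more.

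At the Cebpa and Cebpg loci the noncoding genes with enough counts to test fell. Gm45091, an antisense gene whose start lies 312 bp from that of Cebpa and which shares 51 exonic bp with it, had 31, 27 and 31 counts in PBS and 6, 1 and 3 in LPS, with a log2 fold change of -2.65 and a standard error of 0.41 (edgeR adjusted p = 1.92e-05). Inside Cebpg, Gm44836 (-1.46, adjusted p = 0.0001) and Gm45094 (-1.22, adjusted p = 0.00157) lie on the same strand and were called lower, and Gm44836 shares 73 exonic bp with it. In total RNA the reads of these genes inside Cebpg cannot be told apart from those of unspliced Cebpg RNA. Pepd, which encodes a peptidase and ends 1714 bp from Cebpg, had a log2 fold change of 0.20 (adjusted p = 0.000332).

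At the other loci no neighbor passed both criteria. Cebpzos, on the opposite strand with 171 bp shared with Cebpz, had 352, 341 and 310 counts in PBS and 137, 151 and 140 in LPS, a log2 fold change of -0.76 (edgeR adjusted p = 1.69e-06), opposite in sign to Cebpz. Ndufaf7, a mitochondrial complex I assembly gene whose start is 70 bp from that of Cebpz, stood at 0.24 (adjusted p = 0.00742), and the kinase gene Prkd3 at 0.29 (adjusted p = 3.5e-06). Spidr, which shares 562 bp with Cebpd, was at 0.06 (adjusted p = 0.323). Around Ddit3, Dctn2 was at 0.03 (adjusted p = 0.443), Mbd6 at 0.24 (adjusted p = 0.019), Gm20492 at -0.47 (adjusted p = 0.299) and Mars, the methionyl-tRNA synthetase gene, which shares 68 bp with Ddit3, at -0.10 (adjusted p = 0.0534). These neighbors stayed within 1 log2 unit while Ddit3 fell by 1.26.

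The bZIP genes whose proteins can pair with C/EBP proteins or CHOP were compared next, together with Cebpe. Of 16 such genes 15 were tested, 4 rose and 1 fell past both criteria, where 10.5% and 10.4% of all genes did, and the median log2 fold change was 0.22 against -0.01 for all genes tested. Library size alone would lower this and the following values by about the shift given above, so directions of genes within that distance of 0 depend on the scaling. Jdp2, a repressor of AP-1, rose from 274, 305 and 265 counts to 6018, 5884 and 5794 (log2 fold change 4.86, edgeR adjusted p = 6.85e-22). Junb rose by 4.0, Nfil3 by 3.84 and Fos by 2.40 on the log2 scale. Dbp, a clock output gene of the PAR bZIP group, fell by 1.13. Its relative Tef, named after its value was seen, was at -0.82 (adjusted p = 7.82e-12), and Hlf had too few counts to test. Atf4, the stress factor that pairs with C/EBPγ, was at 0.35 (adjusted p = 2.11e-08), and Atf3, which is known as an LPS-inducible repressor, was at 0.07 (adjusted p = 0.0742) with 14376 to 15572 counts in PBS and 11006 to 11443 in LPS.

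Among 18 genes of proteins that modify, degrade or assist C/EBP proteins, 17 were tested, 2 rose and none fell past both criteria, with a median log2 fold change of 0.18. The share that rose is near the 10.5% of all genes. With the adjusted p alone 10 were higher and 5 lower, where 32.9% and 34.9% of all genes were. Trib1, a pseudokinase that brings C/EBPα to the ubiquitin ligase COP1, had 439, 398 and 403 counts in PBS and 5245, 5363 and 5048 in LPS (log2 fold change 4.13, edgeR adjusted p = 2e-21). Mapkapk2, the kinase downstream of p38, rose by 1.41 on the log2 scale. Trib3, a CHOP and ATF4 target, was at -0.70 (adjusted p = 0.00996) with 52 to 59 counts in PBS and 19 to 34 in LPS. Trib2 had too few counts to test in the fit reported here. Among the alternatives it was called lower only without PBS replicate 2, where it was at -1.12 (adjusted p = 0.0383).

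Ddit3 belongs to the integrated stress response, in which phosphorylation of eIF2α raises ATF4 and its targets. Of 36 genes of this response and of the unfolded protein response, Ddit3 not included, all 36 were tested, 8 rose and none fell past both criteria, and the median log2 fold change was 0.34, beside 10.5% higher and 10.4% lower among all genes. With the adjusted p alone 24 were higher and 7 lower, where 32.9% and 34.9% of all genes were. Ppp1r15a, which encodes the eIF2α phosphatase subunit GADD34 and is known as a CHOP target, went from 1117, 1051 and 983 counts to 17448, 17773 and 17107 (log2 fold change 4.53, edgeR adjusted p = 2.09e-22). The cystine transporter genes Slc7a11 and Slc3a2 rose by 4.23 and 1.29, Vegfa by 3.67, Ddit4, an inhibitor of mTORC1, by 3.21 and Nupr1 by 2.41 on the log2 scale. Hspa5, the ER chaperone BiP, was at 0.60 (adjusted p = 1.61e-11). Of the genes lower with the adjusted p alone, 3 were picked after their values were seen. These were the sensor kinase gene Eif2ak3 (-0.59, adjusted p = 3.77e-09), Xbp1 (-0.46, adjusted p = 1.63e-09) and Sesn2 (-0.72, adjusted p = 3.1e-08). Ddit3 thus fell while Ppp1r15a, from the same response, rose, and the genes of the response did not move in 1 direction.

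Of 28 genes known as C/EBP targets in myeloid cells, 27 were tested, 12 rose and none fell past both criteria, with a median log2 fold change of 0.49, beside the same 10.5% and 10.4% of all genes. Some of the 12 had few or no counts in PBS, and 7 were called higher where 10 counts in every library were required. Whether C/EBP proteins acted on these genes was not tested. The largest changes that the naming rule selects were those of Csf3, Ptgs2, Il1b, Il6, Il10 and Tnf, genes of cytokines and of the prostaglandin synthase COX-2. Csf3 had 0 counts in every PBS library and 713, 673 and 683 in LPS, and Il6 had 1, 2 and 4 counts in PBS and 5798, 5293 and 5885 in LPS. The fitted log2 fold change was 12.11 for Ptgs2, 11.77 for Il1b, 7.73 for Il10 and 6.83 for Tnf. The granulocyte genes of the list, which C/EBPα and C/EBPε govern in precursors, were picked as a group after their values were seen. Mpo was at 0.30 (edgeR adjusted p = 0.0502), Elane at 0.00 (adjusted p = 1), Prtn3 at 0.29 (adjusted p = 0.306) and Camp at 0.49 (adjusted p = 0.0888). Ltf was at 0.24 (adjusted p = 0.0385), S100a8 at 0.40 (adjusted p = 0.000106) and S100a9 at 0.37 (adjusted p = 8.01e-05), and Lcn2 rose by 1.04 (adjusted p = 2.47e-07). Arg1 had too few counts to test.

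For the nucleolar setting of CEBPZ, 16 genes were measured, of nucleolar proteins of the Noc family, of other ribosome assembly proteins and of the Cebpz locus. All 16 were tested, and 0 were called in either direction by edgeR with both criteria, where 10.5% of all genes were higher and 10.4% lower, with a median log2 fold change of -0.04. With an adjusted or an unadjusted p under 0.05 alone 5 were higher and 5 lower. Both are near the shares of all genes with the adjusted p alone, 32.9% higher and 34.9% lower. DESeq2 and limma voom also called 0 of these 16 with both criteria, as they did for the lower regulators, stress response genes and myeloid targets. Lists of this kind were chosen from known functions, with earlier results of these data known, and their counts carry no test against other genes.

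**Figure D5:**
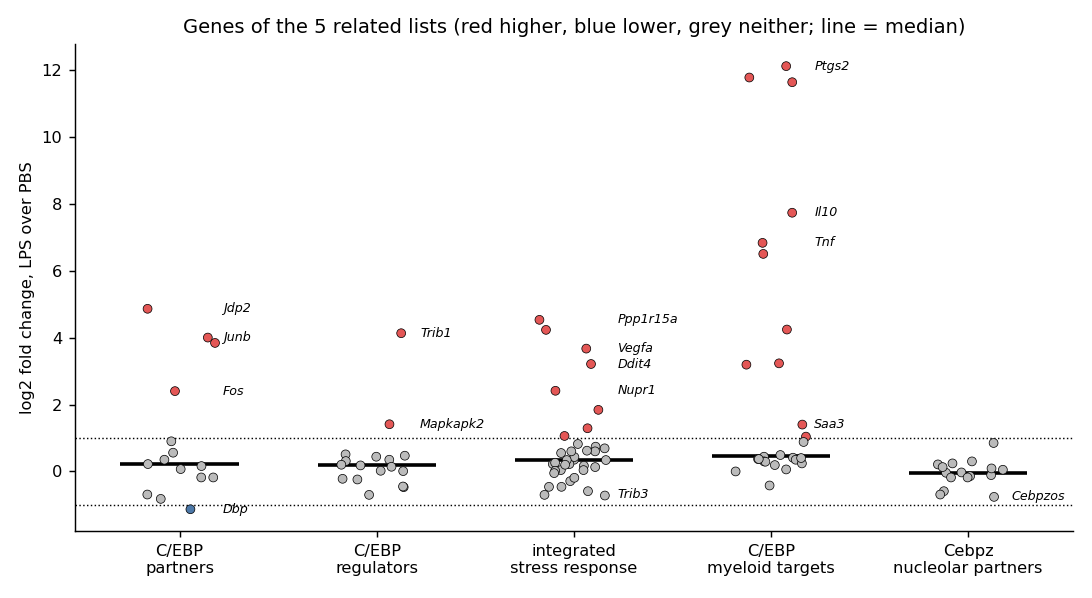
Log2 fold change, LPS over PBS, of the tested genes in the 5 lists. Each point is a gene, red if called higher, blue if called lower and grey otherwise, the black line is the median of the points, and dotted lines mark -1 and 1. Csf3 is left out because its PBS counts were 0. The medians lie between -0.04 for the nucleolar list and 0.49 for the myeloid targets with Csf3 counted, and Dbp is the only point called lower.

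The labelled cell type was checked against its markers. All 9 macrophage markers were tested, and their summed CPM was 30100 to 31400 in PBS and 36100 to 36500 in LPS. Most of the sum was Lyz2, with means of 23300 CPM in PBS and 24200 in LPS. Only Cd14 was called, higher by 3.19 on the log2 scale (edgeR adjusted p = 4.12e-22), where 10.5% of all genes were higher. With the adjusted p alone 7 were higher and 1 lower, where 32.9% and 34.9% of all genes were. The lower gene was Fcgr1 (-0.48, adjusted p = 2.62e-10). Neutrophil and promyelocyte markers summed to 44.9 to 48.7 CPM in PBS and 58.9 to 63.4 in LPS. Ly6g was at 3 counts or fewer in every library, and 0 of the 9 tested genes were past both criteria in edgeR. However, 4 were higher with the adjusted p alone, where 32.9% of all genes were, and 5 with the unadjusted p. All 4 dendritic cell markers were called higher, where 10.5% of all genes were. Their sum went from 3.15 to 4.01 CPM in PBS to 9.62 to 10.6 CPM in LPS. Xcr1 had only 2, 1 and 2 counts in PBS and 27, 17 and 15 in LPS. Zbtb46 had 19, 18 and 18 counts in PBS and 72, 67 and 87 in LPS. Fibroblast markers summed to 9.52 to 10.6 and 12.0 to 14.6 CPM, B cell markers to 2.88 to 3.17 and 2.88 to 3.64 CPM, T and NK cell markers to 0.952 to 1.2 and 1.23 to 1.41 CPM, and erythroid markers to 0.189 to 0.354 and 0.149 to 0.368 CPM. Of the fibroblast markers Pdgfrb was called higher (log2 fold change 1.31, edgeR adjusted p = 3.01e-07). The part of the dendritic cell and neutrophil markers in the C/EBP family values was not tested.

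For each member, the genes with the most similar pattern were found as those with the smallest Euclidean distance of centered log2 CPM (prior count 2) over the 6 libraries. This is a description over 6 libraries of 2 groups, and it mainly sorts genes by the size of their change on this scale. Cebpa was nearest to Zfp251 (0.11), Slc15a4 (0.12) and Gm48701 (0.13). Ddit3 was nearest to Slfn3 (0.10), 2610021A01Rik (0.11) and Zfp46 (0.11). Cebpg was nearest to Ssbp1 (0.04), Dtx3l (0.05) and Gm43727 (0.06), Cebpz to Btbd1 (0.03), Tmem248 (0.05) and Emp3 (0.05), and Cebpd to Thra (0.07), Rhbdd2 (0.08) and Acot1 (0.08). Cebpb had no neighbor as close. Its nearest genes were 1700015I17Rik (0.31), Plek2 (0.32) and AC165425.1 (0.42), which had only 0.333, 0.333 and 13.7 counts on average in PBS and 13.7, 12.0 and 87.7 in LPS. Their fitted log2 fold changes were 5.32, 5.13 and 3.14, against 2.91 for Cebpb, so the first 2 did not match it in size of change.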

How the data were processed

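Total RNA of 6 BMDM libraries, 3 PBS and 3 LPS, was sequenced after 1 h. Per the labels, the submitters' processing notes name FastQC 0.11.9, HISAT2 2.1.0, SAMtools 1.17 and featureCounts 2.0.0, and the builds GRCm38 and mm10. The authors deposited read counts per gene without normalization. The annotation release, the strand setting and the treatment of reads shared by genes are not given in the sources used here. Library totals ranged from 37787611 to 41516330 counts, and TMM factors from 1.148 to 1.153 in PBS and from 0.8642 to 0.8719 in LPS.

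Counts were tested in R 4.3.3 with edgeR 4.0.16 (filterByExpr, TMM, quasi-likelihood test, two-sided, Benjamini-Hochberg over 15687 genes), in place of DESeq2, which the authors used. The limits on p and fold are theirs. Of the 55335 identifiers, 55154 matched GENCODE M21 with the version ignored. Alternatives were DESeq2 1.42.0, limma 3.58.1 voom, other scalings, filters of 1 count and of 10 counts in every library, a test against a log2 fold change of 1, the adjusted p alone, the 10 highest genes left out, each library left out, and a replicate block. The labels give same-numbered libraries the same batch number, which is where the pairing comes from, and their deviations from the group means correlated by -0.0139, 0.0822 and 0.0387. The fits were tested on simulated data.

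The members and lists were chosen with earlier results of these data known. Named from each list were genes past both criteria, at most the 6 with the largest change, a mean of at least 50 counts and 1 direction in all pairs, with Cebpe, Atf3, Atf4, Trib3 and Hspa5 for their roles. Neighbors lie within 20 kb and had at least 10 counts in a library.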

Additional observations from a re-analysis of the deposited data

How the results depend on the processing

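Of 309 values under alternatives, 273 kept their direction and their side of the limits or, for counts, stayed within 1.5 times. Cebpa was short of the limit on fold with DESeq2 size factors and the DESeq2 test (-0.98 each), voom (-0.9976) and the replicate block (-0.9988), and missed the threshold in the test against a log2 fold change of 1 (-1.0006, adjusted p = 1). Each of these 5 gave 1 member called lower. The block changed no other call. Leaving out 1 library gave -1.07 to -0.92 for Cebpa, 1 to 2 members called lower and 0 to 1 regulators called lower, the 1 being Trib2 without PBS replicate 2. Library size alone gave -0.25 for Cebpd, -0.05 for Cebpz and -1.07 for Cebpg, and 3 partners, 1 regulator, 2 stress response genes and 2 nucleolar genes called lower. A filter of 10 counts in every library left 7 of the myeloid targets called higher, since fewer were tested, and put the adjusted p of Cebpd at 0.0527. With the adjusted p alone, the counts higher were 3 members, 9 partners, 10 regulators, 24 stress response genes, 22 myeloid targets and 5 nucleolar genes, and the counts lower were 4 partners, 5 regulators, 7 stress response genes, 1 myeloid target and 5 nucleolar genes. Among all genes 32.9% were higher and 34.9% lower with the adjusted p alone. The difference in the share of Cebpb stayed between 48.2 and 52.3 percentage points, with no division by length, exonic length not shared with another gene (added after the data were seen), Cebpz left out or 1 library left out. Depth limits only the low counts, since 3 counts equal 0.063 to 0.0919 CPM, and for counting error only.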
